A study of Mus musculus with 9 samples.

Results

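The interferon response genes are a list of 42 mouse genes that cells switch on when interferon reaches them, grouped here by role into transcription factors, nucleic acid sensors, the ISG15 system with its ligases, the OAS family, antiviral effectors and inducible GTPases. A member was followed through the probe set that carries its symbol and no other, and where several did, through the one with the highest mean over the 9 arrays. In that way 39 of the 42 were measured, among 17731 genes on the array. Oas1a, Isg15 and Ifi44 had no such probe set in the table used here and are not analysed. All RNA came from C57BL/6-background mouse marrow cells made immortal with HoxA9, a homeobox leukemia oncogene. These were infected with a pSF91 retroviral vector, transplanted into irradiated syngeneic mice and recovered 4 weeks later as sorted GFP-positive marrow cells. The IDH1mut vector carried mutant IDH1 with IRES-GFP, the IDH1wt vector wild-type IDH1 with IRES-EGFP, and the control (CTL) vector EGFP, with 3 arrays in each group. HoxA9, irradiation and transplantation are thus common to the CTL cells, and the labels state neither the IDH1 mutation nor the species of the insert. Nothing in the labels says whether the 3 samples of a group came from separate mice or separate infections, so the p-values below measure only the spread between these samples.

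Interferons are secreted proteins that warn cells of virus or of misplaced nucleic acid. Type I interferons act through the receptor chains IFNAR1 and IFNAR2 and the kinases JAK1 and TYK2, and a complex that holds STAT2 and IRF9 then binds a promoter element called ISRE. Type II interferon, made by T and NK cells, acts through IFNGR1 and IFNGR2 and on a promoter element called GAS. In marrow, interferon signalling acts on blood stem cells and on maturing myeloid cells, and many of its target genes have a basal level with no infection. Values are log2 levels made with RMA, a method that corrects background, equalises arrays and summarises the probes of a set. A log2 fold change is a difference of group means of these levels, given ± its moderated standard error (SE). Genes are said to have risen or fallen when the adjusted p of the limma fit over all 17731 genes was under 0.05. As these are bulk samples, fewer cells of a type and less RNA per cell cannot be told apart.

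Arrays of a group correlated at 0.992 to 0.997 over all genes and arrays of different groups at 0.982 to 0.992. The pan-leukocyte gene Ptprc averaged 6.63, 6.31 and 6.17 in IDH1mut, IDH1wt and CTL cells, and the myeloid granule gene Mpo averaged 12.69, 13.35 and 13.31. RMA gives no detection call, so no gene can be called at 0. Several cell-type marker lists moved between the groups, and their counts in IDH1mut against CTL cells stand beside 10.1% of all genes that rose and 10.6% that fell there. Of 8 pan-leukocyte and myeloid progenitor genes, Csf3r, Fcgr3 and Cd33 rose and Kit fell. Ptprc is in that list and neither rose nor fell by the threshold. Of 9 measured primary granule genes of immature myeloid cells, 9 fell in IDH1mut cells against CTL cells, and of 12 late neutrophil genes 8 rose. Of 12 erythroid genes 11 rose. Of 13 plasmacytoid dendritic cell genes, a cell type known for making type I interferon, 1 rose and 4 fell. Of 18 monocyte and macrophage genes 3 rose and 5 fell. Of 12 genes of conventional dendritic cells and of MHC class II, 3 rose and 2 fell. Of 11 B cell genes 3 rose, and of 14 T and NK cell genes 3 rose. The part of these shifts in the results below was not tested, and the levels of the lists are given at the end.

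Many of the measured interferon response genes rose in IDH1mut cells. Against CTL cells 21 of 39 rose (53.8%), where 10.1% of all genes rose, and Bst2 and Gbp3 fell (5.13%), where 10.6% of all genes fell. The count of 21 was 19 to 22 with 1 array left out, and 19 without CTL replicate 1 or 3. The members that rose covered every role, and the OAS family was the role in which all measured members did, 4 of 4. The median log2 fold change of the 39 was 0.36, against -0.04 over all genes, and 31 of 39 lay above 0, as did 42.7% of all genes. In IDH1wt cells against CTL cells 5 members rose (12.8%, with 1.62% of all genes): Adar, Trim25, Ifit2, Ifit3 and Rsad2. No member fell in that comparison, where 0.711% of all genes fell, by limma (1 at an unadjusted p under 0.05), and an unmoderated test of the same fit also gave 0. In IDH1mut cells against IDH1wt cells 14 members rose (35.9%, with 6.54% of all genes) and 2 fell (5.13%, with 6.78%). The 3 comparisons share arrays in pairs, so their counts are not independent of each other.

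Taken over the list, the 3 arrays of each group lay close together. Each member was set against its own 9-array mean, and the median deviation of the 39 was 0.22, 0.19 and 0.20 in IDH1mut cells, -0.07, 0.05 and -0.06 in IDH1wt cells, and -0.14, -0.22 and -0.18 in CTL cells. The lowest IDH1mut array thus lay above the highest IDH1wt array, and the lowest IDH1wt array above the highest CTL array. The median SD of a member between arrays of a group was 0.143 in IDH1mut, 0.102 in IDH1wt and 0.0887 in CTL cells, with 0.133, 0.131 and 0.114 over all genes. Iigp1, an inducible GTPase, had the widest spread of any member in IDH1mut (SD 0.824) and CTL cells (SD 0.757).

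**Figure D1:**
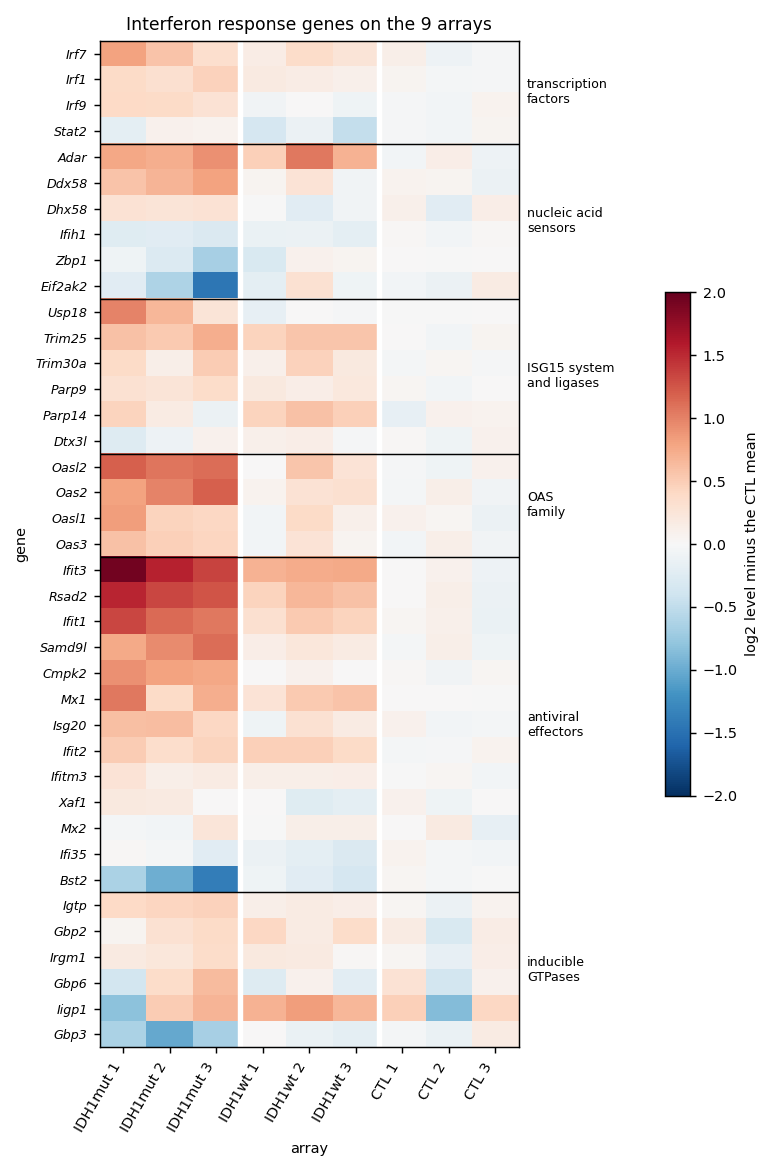
Log2 level minus the CTL mean of that gene (colour, log2 units) for the 39 measured interferon response genes (rows, by role) on the 9 arrays (columns, 3 per group). The Ifit3, Rsad2, Ifit1, Oasl2 and Oas2 rows are redder on all 3 IDH1mut arrays than on any CTL array, and the Bst2 and Gbp3 rows are bluer.

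The antiviral effectors held the 3 largest rises, in Ifit3, Rsad2 and Ifit1. The IFIT proteins bind RNA that lacks the host's cap marks and block its translation. Ifit3 read 8.36, 7.97 and 7.78 on the IDH1mut arrays, 7.13, 7.17 and 7.19 on the IDH1wt arrays, and 6.44, 6.51 and 6.33 on the CTL arrays. The 3 groups did not overlap, with IDH1wt between the other groups. The log2 fold change was 1.61 ± 0.13 (3.05-fold) in IDH1mut against CTL cells (adjusted p = 3.05e-05, limma), 0.74 ± 0.13 (1.67-fold) in IDH1wt against CTL cells (adjusted p = 0.0159) and 0.87 ± 0.13 (1.83-fold) in IDH1mut against IDH1wt cells (adjusted p = 0.00192). Ifit1 read 8.03, 7.83 and 7.76 in IDH1mut cells, 7.02, 7.22 and 7.15 in IDH1wt cells, and 6.74, 6.80 and 6.56 in CTL cells. It had the same non-overlapping order, and it rose by 1.17 ± 0.11 in IDH1mut against CTL cells (adjusted p = 5.71e-05, limma) and by 0.74 ± 0.11 against IDH1wt cells (adjusted p = 0.00157). Its 0.43 ± 0.11 in IDH1wt against CTL cells did not pass (adjusted p = 0.0669). Ifit2 went another way: it read 7.91, 7.75 and 7.84 in IDH1mut cells, 7.87, 7.87 and 7.79 in IDH1wt cells, and 7.36, 7.37 and 7.47 in CTL cells. The arrays of both IDH1 groups lay above all CTL arrays and overlapped with each other. Ifit2 rose by 0.43 ± 0.09 in IDH1mut cells (adjusted p = 0.00528, limma) and by 0.44 ± 0.09 in IDH1wt cells (adjusted p = 0.025) against CTL cells, and the difference between the IDH1 groups was -0.01 ± 0.09 (adjusted p = 0.968). Ifit3 has a near-identical neighbour, Ifit3b, and the Oas, Gbp, Irgm and Trim30 families also hold close copies, so their probe sets may read more than the named gene.

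Rsad2 encodes viperin, a radical SAM enzyme that makes a chain-terminating nucleotide from CTP, and Cmpk2, its neighbour in the genome, encodes a nucleotide kinase. Rsad2 read 10.82, 10.62 and 10.55 in IDH1mut cells, 9.74, 9.95 and 9.88 in IDH1wt cells, and 9.29, 9.41 and 9.17 in CTL cells. No arrays of different groups overlapped, and the gene rose by 1.37 ± 0.11 in IDH1mut (2.59-fold, adjusted p = 2.44e-05, limma) and by 0.57 ± 0.11 in IDH1wt (1.48-fold, adjusted p = 0.0208) against CTL cells. Against IDH1wt cells, IDH1mut cells were higher by 0.81 ± 0.11 (adjusted p = 0.000987). Cmpk2 read 9.41, 9.30 and 9.26 in IDH1mut cells, 8.50, 8.58 and 8.49 in IDH1wt cells, and 8.51, 8.42 and 8.53 in CTL cells. The IDH1mut arrays stood alone, while those of IDH1wt and CTL cells overlapped. Cmpk2 rose by 0.84 ± 0.09 against CTL cells (adjusted p = 0.00012, limma) and by 0.80 ± 0.09 against IDH1wt cells (adjusted p = 0.000337), and IDH1wt differed from CTL cells by 0.04 ± 0.09 (adjusted p = 0.881).

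Samd9l, a growth-restraining protein of myeloid cells that also blocks viral translation, read 11.01, 11.19 and 11.37 in IDH1mut cells, 10.38, 10.48 and 10.42 in IDH1wt cells, and 10.21, 10.36 and 10.17 in CTL cells. Its groups did not overlap, and it rose by 0.94 ± 0.11 in IDH1mut against CTL cells (adjusted p = 0.000195, limma) and by 0.76 ± 0.11 against IDH1wt cells (adjusted p = 0.00132). Of the other effectors, Mx1, a dynamin-like GTPase whose C57BL/6 allele is defective, rose by 0.72 ± 0.15 in IDH1mut against CTL cells. The exonuclease gene Isg20 rose by 0.55 ± 0.11. Mx2 (0.05), the membrane protein gene Ifitm3 (0.19), Xaf1 (0.13) and Ifi35 (-0.07) did not pass. In all, 8 of 13 measured effectors rose and 1 fell in IDH1mut against CTL cells, where 10.1% of all genes rose and 10.6% fell.

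The effector that fell was Bst2, which encodes tetherin, a membrane protein that holds budding virus on the cell and is also a surface marker of plasmacytoid dendritic cells. Bst2 read 7.54, 7.21 and 6.80 in IDH1mut cells, 8.09, 7.96 and 7.84 in IDH1wt cells, and 8.22, 8.14 and 8.17 in CTL cells. All IDH1mut arrays lay under all others. The log2 fold change was -0.99 ± 0.16 (1.99-fold lower) against CTL cells (adjusted p = 0.00127, limma) and -0.78 ± 0.16 (1.72-fold lower) against IDH1wt cells (adjusted p = 0.00808), while IDH1wt against CTL cells gave -0.21 ± 0.16 (adjusted p = 0.542). The fall against IDH1wt cells was lost in the unmoderated test of the limma fit (adjusted p = 0.0541). Siglech, a defining gene of plasmacytoid dendritic cells, averaged 4.57 ± 0.22 in IDH1mut, 4.82 ± 0.03 in IDH1wt and 4.87 ± 0.10 in CTL cells (SD, n = 3 each) and did not pass in IDH1mut against CTL cells by limma (adjusted p = 0.091). Tcf4, a transcription factor of those cells, fell by 0.85 on the log2 scale (SE 0.15, adjusted p = 0.00226, limma), as did 3 others of the 13 genes of that list. Ccr9 of the same list, a chemokine receptor gene, read 4.93, 4.64 and 6.14 in IDH1mut cells, 4.33, 4.71 and 4.28 in IDH1wt cells, and 3.70, 4.33 and 3.62 in CTL cells, and rose by 1.35 ± 0.32 in IDH1mut against CTL cells (adjusted p = 0.0124, limma). The part of plasmacytoid dendritic cells in the Bst2 result was not tested.

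**Figure D2:**
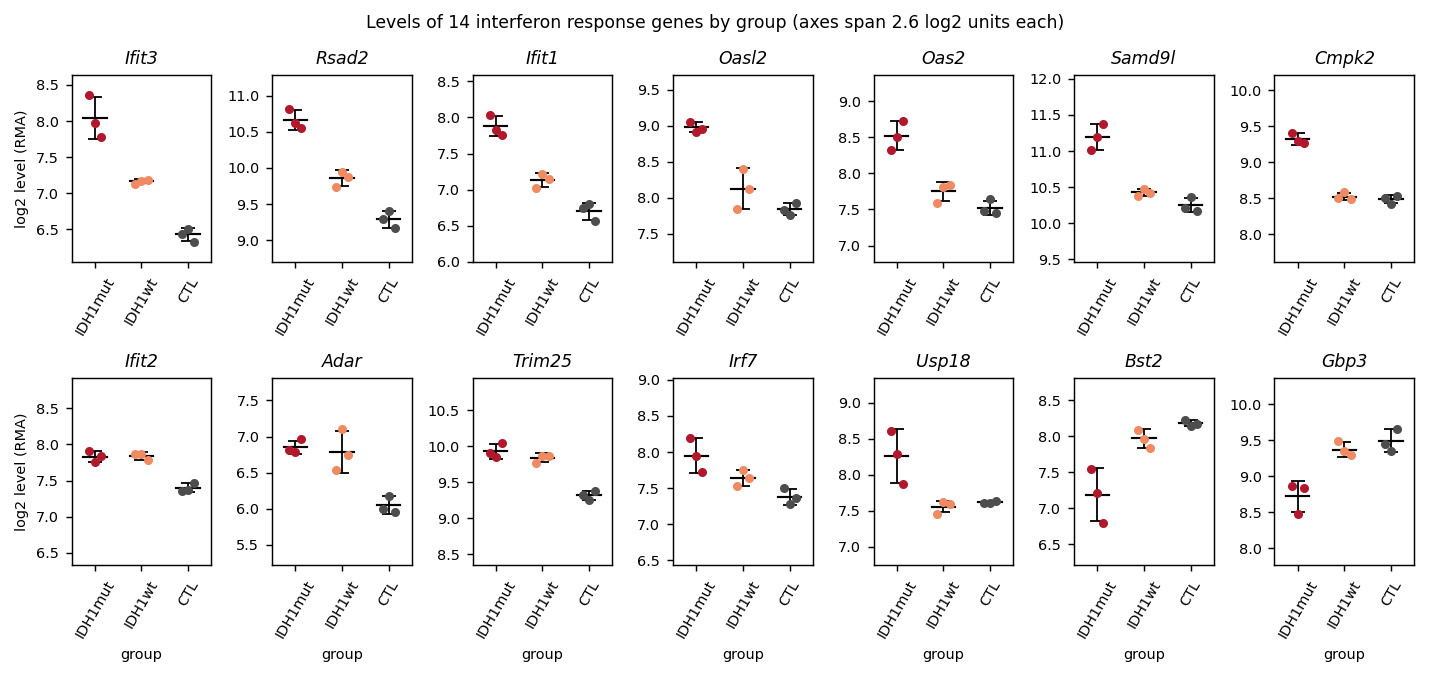
Log2 RMA level (y axis, 2.6 log2 units in every panel) of 14 interferon response genes by group (x axis); points are arrays, long bars means and short bars ± SD (n = 3). Ifit3, Rsad2, Ifit1 and Samd9l step down without overlap through IDH1mut, IDH1wt and CTL cells, Ifit2, Adar and Trim25 overlap between the IDH1 groups above CTL, and Cmpk2 and Usp18 are high in IDH1mut cells.

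The promoter windows of the 4 members with the largest rises and of both members that fell are printed because ISRE and GAS are the elements through which interferon signalling acts. They are RefSeq windows on GRCm38.p6, from 250 bases before the annotated start to 50 after it, 5′ to 3′ on the strand of the gene. Capitals mark the ISRE core (GAAA, any pair of bases, GAAA) and GAS (TTCNNNGAA), searched on both strands.
Ifit3 promoter (chr19:34583279-34583578, plus strand): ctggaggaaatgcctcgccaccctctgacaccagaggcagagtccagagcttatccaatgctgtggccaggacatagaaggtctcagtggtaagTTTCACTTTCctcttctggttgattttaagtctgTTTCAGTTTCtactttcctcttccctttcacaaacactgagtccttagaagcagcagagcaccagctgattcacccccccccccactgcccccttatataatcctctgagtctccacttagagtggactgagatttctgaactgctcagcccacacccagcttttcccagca
Rsad2 promoter (chr12:26456403-26456702, minus strand): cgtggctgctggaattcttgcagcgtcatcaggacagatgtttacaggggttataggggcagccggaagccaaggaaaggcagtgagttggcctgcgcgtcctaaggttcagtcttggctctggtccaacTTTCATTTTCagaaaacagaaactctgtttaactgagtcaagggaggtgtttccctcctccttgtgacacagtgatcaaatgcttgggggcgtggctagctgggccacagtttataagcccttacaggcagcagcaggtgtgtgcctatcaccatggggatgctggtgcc
Ifit1 promoter (chr19:34640639-34640938, plus strand): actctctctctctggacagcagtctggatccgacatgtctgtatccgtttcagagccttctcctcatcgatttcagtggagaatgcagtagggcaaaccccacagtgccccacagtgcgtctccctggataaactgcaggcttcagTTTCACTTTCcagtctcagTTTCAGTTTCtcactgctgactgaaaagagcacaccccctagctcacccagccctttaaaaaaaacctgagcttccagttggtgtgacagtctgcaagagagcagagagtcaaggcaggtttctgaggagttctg
Oasl2 promoter (chr5:114896684-114896983, plus strand): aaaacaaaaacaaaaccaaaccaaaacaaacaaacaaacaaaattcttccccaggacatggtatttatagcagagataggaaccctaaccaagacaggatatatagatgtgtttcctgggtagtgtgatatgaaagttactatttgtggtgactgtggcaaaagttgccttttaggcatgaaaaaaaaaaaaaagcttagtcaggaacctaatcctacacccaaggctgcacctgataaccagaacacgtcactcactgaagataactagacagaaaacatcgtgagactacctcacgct
Bst2 promoter (chr8:71537423-71537722, minus strand): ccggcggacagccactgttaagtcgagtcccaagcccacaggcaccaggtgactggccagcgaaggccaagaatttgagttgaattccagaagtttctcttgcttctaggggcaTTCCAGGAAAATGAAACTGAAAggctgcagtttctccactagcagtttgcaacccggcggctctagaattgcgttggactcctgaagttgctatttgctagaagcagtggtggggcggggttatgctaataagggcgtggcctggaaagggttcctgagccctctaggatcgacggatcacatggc
Gbp3 promoter (chr3:142559794-142560093, plus strand): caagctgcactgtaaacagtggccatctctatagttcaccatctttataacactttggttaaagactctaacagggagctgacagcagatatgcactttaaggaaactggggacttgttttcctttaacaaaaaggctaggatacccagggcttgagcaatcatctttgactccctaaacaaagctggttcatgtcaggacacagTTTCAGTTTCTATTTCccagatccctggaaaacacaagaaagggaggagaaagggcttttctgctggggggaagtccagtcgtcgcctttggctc
The window of Ifit3 held 2 ISRE matches, at bases -156 to -147 and -122 to -113 counted from the start, and that of Ifit1 held 2, at -104 to -95 and -85 to -76. The Rsad2 window held 1, at -120 to -111, and the Oasl2 window held none of these letters. Both genes that fell had matches too: Bst2 had 2 overlapping ISRE matches at -130 to -121 and -124 to -115 with an overlapping GAS at -136 to -128, and Gbp3 had 2 overlapping ISRE matches at -45 to -36 and -39 to -30. For Gbp3 the most 5′ of 2 annotated windows is shown.

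Over all RefSeq windows of this length, 3.44% of 32851 held an ISRE match and 8.3% a GAS match. By gene, 15 of the 29 measured members that have a window held ISRE in at least 1 (51.7%, with 3.99% of 27025 genes), and 9 of 29 held GAS (31.0%, with 9.55% of genes). Matches stood in members of every kind of call. ISRE was present in 6 of 17 members that rose in IDH1mut against CTL cells (35.3%), in 2 of 2 that fell, and in 7 of 10 that did not pass (70.0%). GAS was present in 5 of 17 (29.4%), 1 of 2 and 3 of 10 (30.0%) of them. These are counts of letters in a window, given as a description.

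The OAS family makes oligoadenylates that switch on RNase L. All 4 measured members rose in IDH1mut against CTL cells, where 10.1% of all genes rose. Oasl2, which is OAS-like by sequence, read 9.05, 8.92 and 8.96 in IDH1mut cells, 7.85, 8.40 and 8.13 in IDH1wt cells, and 7.83, 7.77 and 7.93 in CTL cells. The IDH1mut arrays lay above all others, and IDH1wt overlapped with CTL. Oasl2 rose by 1.13 ± 0.13 (2.19-fold) in IDH1mut against CTL cells (adjusted p = 0.000195, limma) and by 0.85 ± 0.13 (1.80-fold) against IDH1wt cells (adjusted p = 0.00188). Oas2 read 8.33, 8.51 and 8.72 in IDH1mut cells, 7.59, 7.81 and 7.84 in IDH1wt cells, and 7.48, 7.64 and 7.45 in CTL cells. It had the same pattern, with IDH1mut alone at the top, and rose by 1.00 ± 0.12 (1.99-fold) against CTL cells (adjusted p = 0.000244, limma) and by 0.77 ± 0.12 against IDH1wt cells (adjusted p = 0.00207). Oas3 rose by 0.50 ± 0.11 and Oasl1, which in mouse blocks translation of Irf7, by 0.57 ± 0.14 against CTL cells. The Oasl1 call was lost without CTL replicate 3 (adjusted p = 0.0594, limma) and in the unmoderated test (adjusted p = 0.0625). In IDH1wt against CTL cells the 4 members had log2 fold changes of 0.10 to 0.28, which did not pass.

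Of the transcription factors, 3 of 4 rose in IDH1mut against CTL cells, where 10.1% of all genes rose. Irf7, which drives the second wave of type I interferon and is itself induced by interferon, read 8.19, 7.95 and 7.72 in IDH1mut cells, 7.53, 7.75 and 7.64 in IDH1wt cells, and 7.50, 7.28 and 7.36 in CTL cells. IDH1mut and CTL arrays did not overlap, and 1 IDH1mut array lay within the IDH1wt range. Irf7 rose by 0.57 ± 0.13 (1.49-fold) against CTL cells (adjusted p = 0.00805, limma), and neither IDH1wt against CTL (0.26 ± 0.13, adjusted p = 0.329) nor IDH1mut against IDH1wt cells (0.31 ± 0.13, adjusted p = 0.134) passed. Irf1, a factor that binds ISRE and is induced through GAS, rose by 0.39 ± 0.09 in IDH1mut against CTL cells (adjusted p = 0.00811, limma). Irf9, the DNA-binding subunit of the complex that binds ISRE, rose by 0.36 ± 0.09 against CTL cells (adjusted p = 0.0127, limma; 0.0519 without CTL replicate 1) and by 0.41 ± 0.09 against IDH1wt cells (adjusted p = 0.0107). Its partner Stat2 gave -0.01 ± 0.12 against CTL cells (adjusted p = 0.977, limma). Stat2 was 1 of 4 members whose mean lay under the median of gene means, 4.94, with Dhx58, Parp14 and Gbp6. At such low levels a change could be missed.

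The nucleic acid sensors were split. Adar, which edits adenosine in double-stranded RNA and so keeps a cell's own RNA from being sensed, read 6.82, 6.78 and 6.96 in IDH1mut cells, 6.53, 7.10 and 6.74 in IDH1wt cells, and 6.00, 6.18 and 5.95 in CTL cells. Both IDH1 groups lay above all CTL arrays and overlapped with each other. Adar rose by 0.81 ± 0.14 (1.75-fold) in IDH1mut (adjusted p = 0.00189, limma) and by 0.74 ± 0.14 (1.67-fold) in IDH1wt cells (adjusted p = 0.0176) against CTL cells, and the IDH1 groups differed by 0.06 ± 0.14 (adjusted p = 0.819). Ddx58, which encodes the RNA sensor RIG-I, rose by 0.68 ± 0.11 against CTL cells (adjusted p = 0.0016, limma) and by 0.60 ± 0.11 against IDH1wt cells (adjusted p = 0.00541). Dhx58, encoding its regulator LGP2, passed only against IDH1wt cells, at 0.38 ± 0.11 (adjusted p = 0.0478, limma), and lost that call without any 1 of the 6 arrays. Its level was low, with means of 3.43, 3.05 and 3.15 in IDH1mut, IDH1wt and CTL cells. The other sensors pointed down without passing in IDH1mut against CTL cells. Ifih1, encoding the long-RNA sensor MDA5, gave -0.26 ± 0.08 (adjusted p = 0.0522, limma), Zbp1, a sensor of Z-form nucleic acid, gave -0.33 ± 0.15 (adjusted p = 0.147), and Eif2ak2, encoding the kinase PKR, gave -0.77 ± 0.25 (adjusted p = 0.0502). Eif2ak2, described here after its values were seen, read 6.48, 6.09 and 5.26 in IDH1mut cells, 6.51, 7.02 and 6.62 in IDH1wt cells, and 6.66, 6.59 and 6.88 in CTL cells. All IDH1mut arrays lay under all others, with IDH1mut replicate 3 lowest.

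Isg15 itself, the ubiquitin-like protein of the ISG15 system, was not measured. Of 6 measured genes around it, 3 rose in IDH1mut against CTL cells, where 10.1% of all genes rose. Usp18, which removes ISG15 from proteins and silences IFNAR2, read 8.61, 8.29 and 7.87 in IDH1mut cells, 7.46, 7.62 and 7.59 in IDH1wt cells, and 7.61, 7.61 and 7.63 in CTL cells. The IDH1mut arrays lay above all others and were widely spread. Usp18 rose by 0.64 ± 0.15 (1.56-fold) against CTL cells (adjusted p = 0.0124, limma) and by 0.70 ± 0.15 against IDH1wt cells (adjusted p = 0.0122), and IDH1wt against CTL cells gave -0.06 ± 0.15 (adjusted p = 0.884). Both rises were lost in the unmoderated test of the limma fit (adjusted p = 0.0637 and 0.0669). Trim25, a ubiquitin ligase that acts on RIG-I, read 9.90, 9.85 and 10.04 in IDH1mut cells, 9.77, 9.87 and 9.87 in IDH1wt cells, and 9.32, 9.26 and 9.38 in CTL cells. As with Adar and Ifit2, both IDH1 groups lay above CTL and overlapped. Trim25 rose by 0.61 ± 0.09 (1.53-fold) in IDH1mut (adjusted p = 0.000868, limma) and by 0.52 ± 0.09 (1.43-fold) in IDH1wt cells (adjusted p = 0.0146), with 0.10 ± 0.09 between the IDH1 groups (adjusted p = 0.565). Its probe set is of a kind that can match several transcripts. Parp9, an ADP-ribosyltransferase-family partner of Dtx3l, rose by 0.31 ± 0.08 (adjusted p = 0.0225, limma), a call that was lost without CTL replicate 1, 2 or 3 or IDH1mut replicate 3 (adjusted p up to 0.0719). Dtx3l itself (-0.09), Parp14 (0.17) and Trim30a (0.34) did not pass.

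The inducible GTPases attack the vacuoles of intracellular pathogens and are known mainly as targets of interferon-gamma. Of 6 measured, Igtp rose, Gbp3 fell and 4 did not pass in IDH1mut against CTL cells, where 10.1% of all genes rose and 10.6% fell. With 1 called gene in each direction, the role was not set apart from all genes. Gbp3 read 8.86, 8.47 and 8.83 in IDH1mut cells, 9.49, 9.35 and 9.29 in IDH1wt cells, and 9.45, 9.35 and 9.66 in CTL cells. The IDH1mut arrays lay under all others. The log2 fold change was -0.77 ± 0.13 against CTL cells (adjusted p = 0.00155, limma) and -0.66 ± 0.13 against IDH1wt cells (adjusted p = 0.0065), with -0.11 ± 0.13 in IDH1wt against CTL cells (adjusted p = 0.703). Igtp, an immunity-related GTPase also called Irgm3, rose by 0.44 ± 0.09 in IDH1mut against CTL cells (adjusted p = 0.00487, limma). Gbp2 (0.25), Gbp6 (0.21), Irgm1 (0.25) and Iigp1 (0.12 ± 0.39) did not pass. Iigp1, also described after its values were seen, read 4.95, 6.28 and 6.45 in IDH1mut cells, 6.46, 6.60 and 6.44 in IDH1wt cells, and 6.24, 4.90 and 6.18 in CTL cells. It was low on IDH1mut replicate 1 and CTL replicate 2 alone. The median deviation of the 6 GTPases from their own 9-array means was also lowest on these arrays. It was -0.23, 0.17 and 0.25 on the IDH1mut arrays and 0.08, -0.35 and 0.03 on the CTL arrays. Gbp3 went the other way on IDH1mut replicate 1, where it was highest of its group.

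The 5 members that rose in IDH1wt against CTL cells, Adar, Ifit3, Rsad2, Trim25 and Ifit2, rose in IDH1mut cells too, though the comparisons share the CTL arrays. The IDH1wt count rested on single arrays. It was 0 without CTL replicate 1 or IDH1wt replicate 3, 1 without CTL replicate 3 or IDH1wt replicate 2, 4 without CTL replicate 2 and 5 without IDH1wt replicate 1. Over these fits the adjusted p of limma went up to 0.0801 for Adar, 0.0738 for Ifit3, 0.0938 for Rsad2, 0.0693 for Trim25 and 0.125 for Ifit2. Their log2 fold changes stayed above 0 in each. An unmoderated test of the limma fit lost Adar, Ifit3 and Rsad2 (adjusted p of 0.0938 to 0.122). The median log2 fold change of all 39 members in IDH1wt against CTL cells was 0.13, against -0.04 over all genes, and 28 of 39 lay above 0, as did 41.5% of all genes.

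Between the IDH1 groups, IDH1mut cells had the higher level of 14 members past the threshold. The count was 10 to 13 with 1 array left out, and 11 to 16 under the alternatives that kept all arrays compared. The median log2 fold change over the 39 was 0.26, against 0.0 over all genes. Of these 14, Dhx58 and Igtp (0.29 ± 0.09) lost their call without any 1 of the 6 arrays, with adjusted p up to 0.134 and 0.124 by limma. Oas3 (0.41 ± 0.11) and Isg20 (0.41 ± 0.11) lost theirs without IDH1wt replicate 1 or 3 or IDH1mut replicate 1 or 2 (up to 0.0954 and 0.106). The calls of Dhx58 and Igtp were also lost after centring each array on its median, and those of Oas3 and Isg20 in the unmoderated test and with the 6 arrays alone. The count of members that fell was 2, and 4 without IDH1mut replicate 1. With no overlap between any groups and in the order IDH1mut over IDH1wt over CTL stood 7 members, Irf1, Parp9, Ifit1, Ifit3, Rsad2, Samd9l and Igtp. They were 17.9% of the 39, and 2.35% of all genes had that order.

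**Figure D3:**
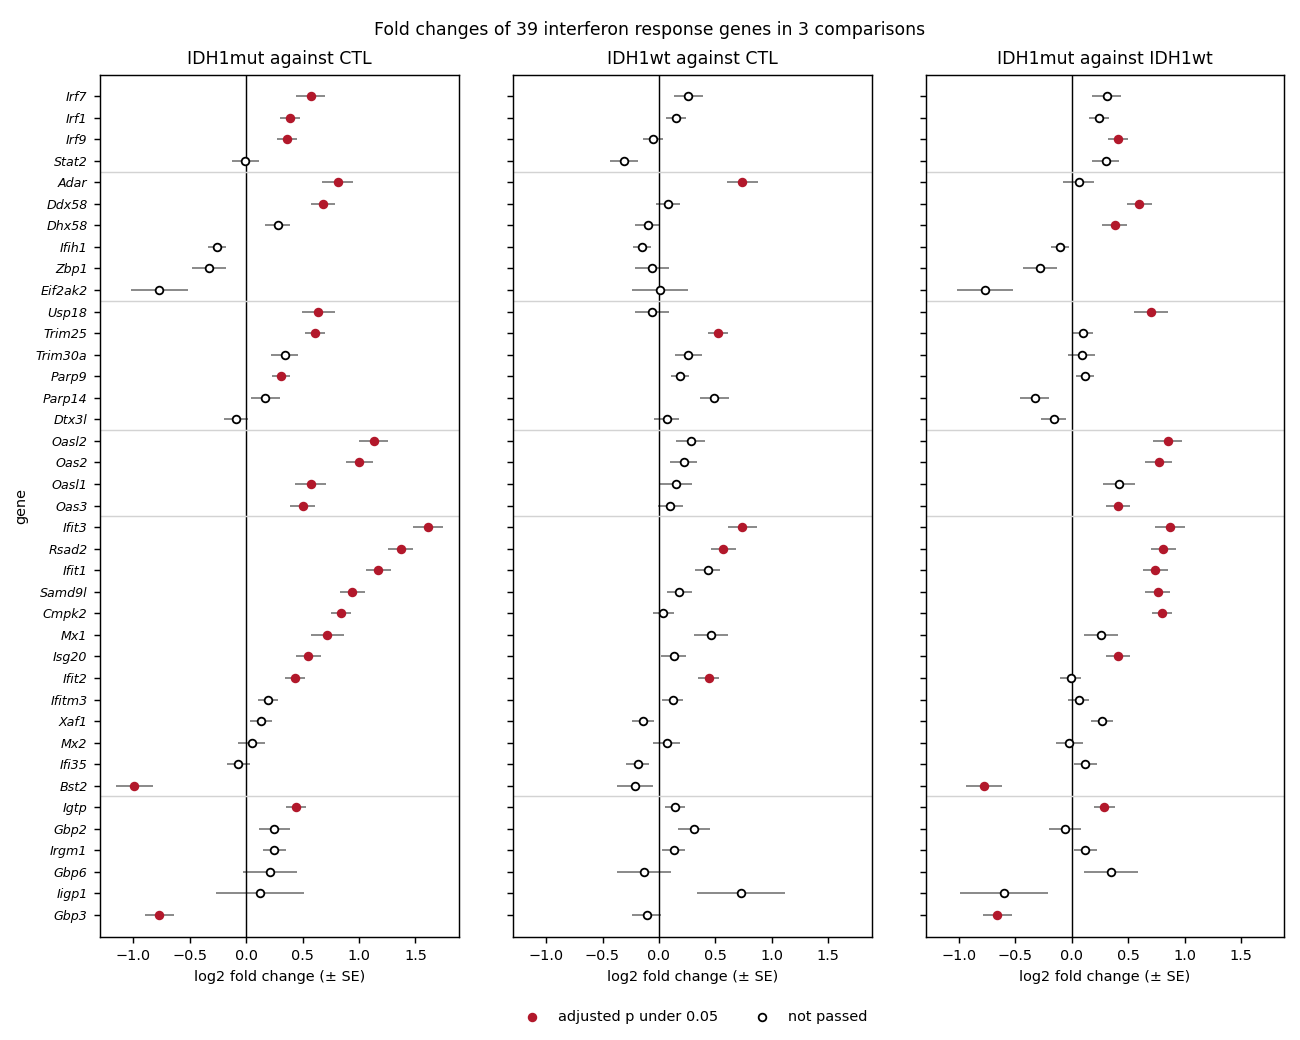
Log2 fold change ± SE (x axis) of the 39 measured interferon response genes (y axis, by role) in 3 panels, IDH1mut against CTL, IDH1wt against CTL, then IDH1mut against IDH1wt; filled points have an adjusted p under 0.05 by limma over all genes. From left to right 21 rose and 2 fell, 5 rose and none fell, and 14 rose and 2 fell.

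The interferon genes themselves, the start of the pathway, showed no change that passed the test. Of 21 listed ligand genes 9 were measured, and 0 rose and 0 fell in each comparison by limma. Of all genes, 10.1% rose and 10.6% fell in IDH1mut against CTL cells. The shares were 1.62% and 0.711% in IDH1wt against CTL cells, and 6.54% and 6.78% between the IDH1 groups. With only 9 genes, a count of 0 does not set the ligands apart from all genes. At an unadjusted p under 0.05, 1 was lower in IDH1mut against CTL cells, 1 in IDH1wt against CTL cells and 0 between the IDH1 groups. The mean log2 level of the 9 ran from 3.72 to 3.77 on the IDH1mut arrays, from 3.62 to 3.85 on the IDH1wt arrays and from 3.80 to 3.85 on the CTL arrays. These means lay under the median of gene means, 4.94, and at such low levels a change of ligand RNA could be missed. Ifnb1, encoding interferon-beta, averaged 3.84 ± 0.28 in IDH1mut, 3.65 ± 0.08 in IDH1wt and 3.73 ± 0.07 in CTL cells (SD, n = 3 each). Whether cells outside the sort made interferon was not measured.

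Receptor and JAK-STAT genes moved in both directions. Of those listed 10 were measured, of which 3 rose (30.0%, with 10.1% of all genes) and 3 fell (30.0%, with 10.6%) in IDH1mut against CTL cells. Ifnlr1, a chain of the type III interferon receptor, read 8.04, 8.02 and 8.29 in IDH1mut cells, 6.89, 7.18 and 6.98 in IDH1wt cells, and 6.72, 7.05 and 6.86 in CTL cells. IDH1mut arrays lay above all others, and Ifnlr1 rose by 1.24 ± 0.12 against CTL cells (adjusted p = 9.15e-05, limma). The kinase gene Jak2 rose by 0.57 ± 0.10 (adjusted p = 0.00178) and Ifnar1 by 0.52 ± 0.11 (adjusted p = 0.00655). The kinase gene Tyk2 fell by 0.44 (SE 0.12, adjusted p = 0.0193, limma), Ifngr1 fell by 0.33 (SE 0.10, adjusted p = 0.041) and Ifnar2 fell by 0.30 (SE 0.09, adjusted p = 0.0383). These falls hung on single arrays: without CTL replicate 1 or 3 or IDH1mut replicate 2 or 3 none of the 3 passed, and without CTL replicate 2 the falls of Ifngr1 and Ifnar2 did not (adjusted p up to 0.0749 for Tyk2, 0.139 for Ifngr1 and 0.128 for Ifnar2). In IDH1wt against CTL cells Ifnar1 alone of the 10 rose, by 0.48 ± 0.11 (adjusted p = 0.0479, limma), a call lost without CTL replicate 1 or 2 or any 1 of the 3 IDH1wt replicates (adjusted p up to 0.19).

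Of 13 measured sensors and adaptors upstream of interferon, 5 rose (38.5%, with 10.1% of all genes) and 1 fell (7.69%, with 10.6%) in IDH1mut against CTL cells. The largest rises were in Tlr4, the endotoxin receptor gene (0.74, lost without CTL replicate 1 at adjusted p = 0.0524, limma, and in the unmoderated test at 0.0683), Irf3, the factor that starts type I interferon transcription (0.61, adjusted p = 0.051 in the unmoderated test), and the adaptor gene Myd88 (0.53), and the adaptor gene Ticam1 fell by 0.37 (lost without CTL replicate 1 or 2 or IDH1mut replicate 2, adjusted p up to 0.0592). Of 5 measured genes listed as other IRF factors 3 fell in IDH1mut against CTL cells, where 10.6% of all genes fell. These were Irf8, Irf2bp2 and Irf2bp1. Irf2 and Irf4 did not pass, so 0 rose, where 10.1% of all genes did. Irf2bp2 and Irf2bp1 encode proteins that bind IRF2 and are not IRF factors themselves. Irf8, a factor of monocyte and dendritic cell fate, fell by 0.77 (SE 0.16, adjusted p = 0.00633, limma). The Irf2bp1 call was lost without CTL replicate 1, 2 or 3 or IDH1mut replicate 3 (adjusted p up to 0.112, limma). Of 16 measured inhibitors of the pathway 5 rose (31.2%, with 10.1% of all genes) and 1 fell (6.25%, with 10.6%). The fall, in Rnf125 (-0.29), was lost without any 1 of the 6 arrays (adjusted p of 0.0566 to 0.114, limma). Samhd1, which destroys nucleotides and restrains interferon production, was higher by 0.68 in IDH1mut and by 0.82 in IDH1wt cells than in CTL cells, the second call being lost without CTL replicate 1 (adjusted p = 0.0579, limma).

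Of 81 further interferon-induced genes outside the list of 42, 26 rose (32.1%, with 10.1% of all genes) and 9 fell (11.1%, with 10.6% of all genes) in IDH1mut against CTL cells, with a median log2 fold change of 0.16. The share that fell was thus near that of all genes. The 26 became 18 to 23 with 1 array left out, and 20 to 30 under the alternatives that kept all arrays compared. Slfn4, a Schlafen gene of maturing myeloid cells, read 11.65, 11.76 and 12.01 in IDH1mut cells, 10.58, 10.41 and 10.51 in IDH1wt cells, and 9.48, 10.05 and 9.50 in CTL cells. No groups overlapped, and Slfn4 rose by 2.13 ± 0.15 (adjusted p = 1.46e-05, limma). The IFIT relatives Ifit1bl2 (1.97 ± 0.11, adjusted p = 2.37e-06) and Ifit1bl1 (1.82 ± 0.10, adjusted p = 2.7e-06) rose as well; they are near-copies of each other. The largest falls were in Slfn9, which fell by 1.23, and in the antigen-processing genes Tap2, which fell by 0.99, and Psmb10, which fell by 0.74. In IDH1wt against CTL cells 6 of the 81 rose (7.41%, with 1.62% of all genes) and 0 fell by limma (21 and 6 at an unadjusted p under 0.05), and the 6 became 1 or 2 without CTL replicate 1 or 3 or IDH1wt replicate 3. In IDH1mut against IDH1wt cells 19 rose (23.5%, with 6.54% of all genes) and 11 fell (13.6%, with 6.78%), and the 11 became 3 to 6 without IDH1wt replicate 1, 2 or 3 or IDH1mut replicate 2 or 3.

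**Figure D4:**
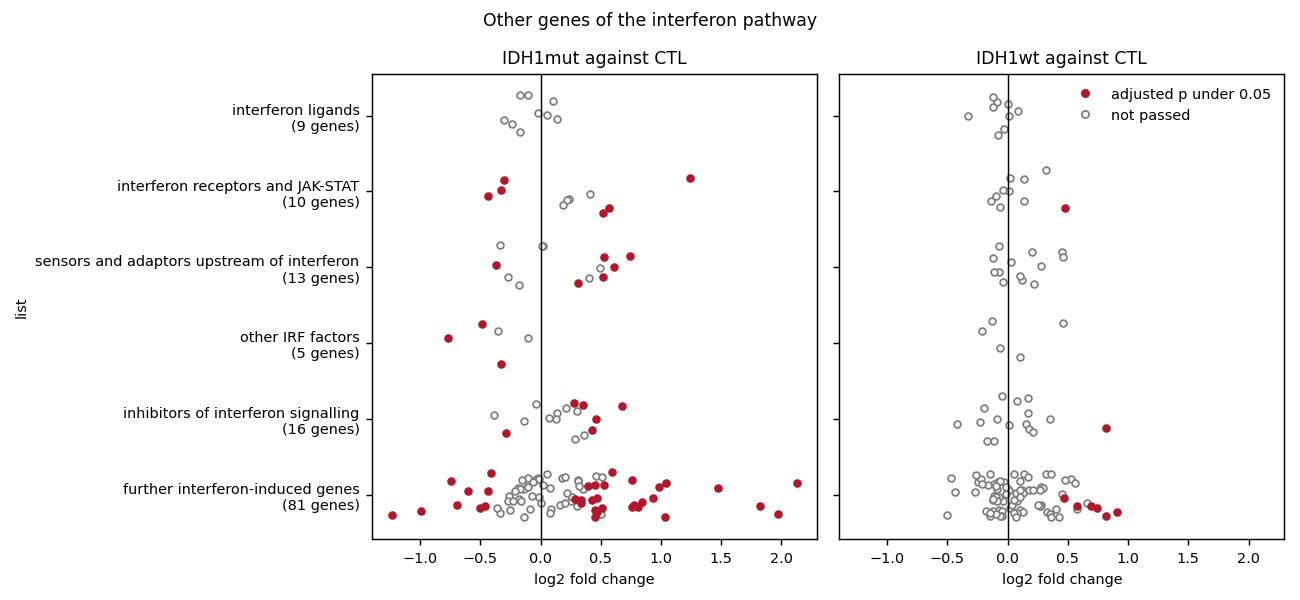
Log2 fold change (x axis) of the genes of 6 other lists of the interferon pathway (y axis, measured genes in brackets, vertical scatter for legibility) in IDH1mut against CTL cells and IDH1wt against CTL cells; filled points have an adjusted p under 0.05 by limma. The 9 ligand genes hold no filled point, and the further interferon-induced genes hold 26 filled points above 0 and 9 below in IDH1mut and 6 above 0 in IDH1wt cells.

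The marker lists had the following levels, as the mean log2 level of the list on each array. Pan-leukocyte and myeloid progenitor genes ran from 9.13 to 9.19 in IDH1mut, from 8.86 to 8.91 in IDH1wt and from 8.84 to 8.91 in CTL cells. Late neutrophil genes ran from 12.71 to 12.78 in IDH1mut, from 12.19 to 12.25 in IDH1wt and from 12.06 to 12.22 in CTL cells. Primary granule genes ran from 10.56 to 10.62 in IDH1mut, from 11.29 to 11.44 in IDH1wt and from 11.41 to 11.54 in CTL cells. In these 3 lists, and in the T and NK cell list below, the IDH1mut arrays lay apart from the other groups, as they did for the interferon response genes. Plasmacytoid dendritic cell genes overlapped between the groups, at 5.76 to 6.14 in IDH1mut, 5.80 to 6.20 in IDH1wt and 5.85 to 6.24 in CTL cells. Conventional dendritic cell and MHC class II genes ran from 6.81 to 6.99 in IDH1mut, from 7.05 to 7.21 in IDH1wt and from 6.83 to 7.05 in CTL cells. In IDH1mut against IDH1wt cells 1 of these 12 rose (8.33%, with 6.54% of all genes) and 5 fell (41.7%, with 6.78%), H2-Aa, H2-Ab1, H2-Eb1, Cd74 and Cd209a. Erythroid genes ran from 8.35 to 8.60 in IDH1mut, from 6.84 to 8.37 in IDH1wt and from 7.15 to 7.23 in CTL cells, and B cell genes from 6.38 to 7.38, from 4.94 to 6.30 and from 5.75 to 6.85. The B cell list varied widely within each group, and it overlapped between the IDH1mut and CTL arrays. Monocyte and macrophage genes ran from 8.40 to 8.71 in IDH1mut, from 8.71 to 8.91 in IDH1wt and from 8.63 to 8.75 in CTL cells, and T and NK cell genes from 4.84 to 5.09, from 4.51 to 4.60 and from 4.68 to 4.69. The part of any of these cell types in the interferon response results was not tested.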

How the data were processed

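RNA of 9 samples was hybridised to Affymetrix mouse arrays, 3 µg of total RNA each per the labels' protocols. The deposited values are log2 levels per probe set, made by the authors with RMA per the submitters' processing notes, with no version given. Of 20877 probe sets, 17815 had 1 gene symbol in an annotation of 2016, 244 had several and 2818 had none; genes of these last 2 kinds were not tested. How the array was reduced to about 1 probe set per gene (17649 of 17731 genes) is not stated in the sources read. With limma 3.58.1 (R 4.3.3), group means were estimated from the 9 arrays together, with two-sided moderated contrasts and Benjamini-Hochberg adjustment over the 17731 genes of each contrast (threshold 0.05). The fit was tested on simulated data.

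The members and gene lists were chosen with earlier results of these data known. Values of every array are given by rule for 14 members: the 6 largest rises and every fall in IDH1mut against CTL cells, every member called in IDH1wt against CTL cells, the 4 largest rises and falls between the IDH1 groups, and the member of each role with the largest change. Of the other lists, up to 3 called genes in each direction are named. Ptprc, Mpo, Siglech and Ifnb1, and the array values of Ifnlr1, Slfn4, Ccr9 and the members Eif2ak2 and Iigp1, were added with their values in view. Promoter windows are from RefSeq (GRCm38.p6). Precision is limited by 3 arrays per group. Alternatives were averaged probe sets of a gene, brighter genes only, repeated quantile normalisation, median centring, the 6 arrays compared alone, an intensity trend with a robust prior, a block on the replicate number, array weights, an unmoderated test, and each array left out in turn.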

Additional observations from a re-analysis of the deposited data

Results flagged for a closer look

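Probe sets that carry several gene symbols were outside the tests, and those holding symbols of the interferon lists were compared with the CTL arrays. A probe set holding Gvin1, an interferon-inducible GTPase, read 10.31, 10.10 and 10.33 in IDH1mut cells, 10.45, 10.47 and 10.43 in IDH1wt cells, and 10.07, 9.97 and 10.15 in CTL cells. Its mean was 0.39 higher in IDH1wt than in CTL cells, with all IDH1wt arrays above all CTL arrays. A probe set holding Ifi203, of the interferon-inducible HIN family, read 8.72, 8.37 and 8.79 in IDH1mut cells, 9.20, 9.16 and 9.03 in IDH1wt cells, and 8.61, 8.66 and 8.70 in CTL cells. It was 0.47 higher in IDH1wt than in CTL cells, and the IDH1mut mean differed from CTL by -0.03. Neither difference was tested, and which of its genes each probe set reads is not known.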

How the results depend on the processing

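The members that rose in IDH1mut against CTL cells were 21, and 20 to 23 under the alternatives that kept all arrays compared. Array weights, brighter genes only and a repeated quantile normalisation each gave 4 members that fell in IDH1mut against CTL cells, against 2, with Eif2ak2 and Ifih1 added. The median of the members was 0.43 with brighter genes only, against 0.36, and 0.36 to 0.43 with 1 array left out. In IDH1wt against CTL cells the members that rose were 5, but 8 with array weights, 2 in the unmoderated test and 0 to 5 with 1 array left out. The further interferon-induced genes that rose there were 6, but 14 with array weights, 11 with an intensity trend and robust prior, 0 in the unmoderated test and 1 to 9 with 1 array left out. Of those, 1 fell with brighter genes only, with the 6 arrays alone or with the intensity trend, 2 with array weights and 0 to 1 with 1 array left out, against 0. In IDH1mut against IDH1wt cells 2 members fell, 1 in the unmoderated test and 2 to 4 with 1 array left out. The median of the members there was 0.26, and 0.19 to 0.26 with 1 array left out. The further genes that fell there were 11, but 6 with the 6 arrays alone, 4 in the unmoderated test and 3 to 11 with 1 array left out. Adar and Ifit2 did not pass there, at 0.06 and -0.01: Adar ran from -0.07 to 0.22 with 1 array left out and Ifit2 from -0.05 to 0.03, with 0.0 after repeated quantile normalisation. The cause of these shifts was not tested.

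Same-numbered samples did not deviate together over all genes (correlations from -0.0857 to 0.0257). Whether the numbers pair samples is not known, as the labels do not say and a pairing that touched only some genes could be missed. With the replicate number as a block, 21 members rose and 2 fell in IDH1mut against CTL cells, 4 rose in IDH1wt against CTL cells, and 12 rose and 2 fell in IDH1mut against IDH1wt cells.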
